A study of Bos taurus with 6 samples.

Results

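The miR-191 and miR-425 cluster was measured in serum extracellular vesicles (EVs) of dairy cows through its 3 listed miRNAs, bta-miR-191, bta-miR-425-5p and bta-miR-425-3p. They were chosen by name as neighbours transcribed together, not by a rule on their values, though earlier results of these data were known. All 3 were present among the 359 known Bos taurus miRNAs and 706 miRNAs in all of the deposited count table. The 6 libraries came from 6 female Holstein cows in mid lactation, 1 library per cow, with serum taken on day 30 of feeding. The 3 control cows ate a total mixed ration, and the 3 tested cows ate a ration in which whole cotton seed and soybean hull took the place of part of the alfalfa hay and, by the study's account of the diets, of a little of the corn silage. All cows were kept at the same constant temperature and humidity. EVs are membrane-bound particles that cells release into body fluids, and here they were bound from serum on an affinity membrane, so that a library mixes vesicles of many source cells. More vesicles of a kind and more RNA in each of them cannot be told apart in such a library.

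A miRNA is cut from a hairpin in a longer transcript, and each hairpin can give a mature strand from its 5′ arm (5p) and one from its 3′ arm (3p). Hairpins that lie close together on a strand are often cut from a shared transcript, while each mature strand is then loaded, kept and decayed on its own. In mammals the hairpins of miR-191 and miR-425 are such neighbours and are known as residents of the gene DALRD3. The miR-191 strand is abundant in blood and blood cells, is known as a regulator of T lymphocytes, and is widely used as a reference for normalising serum miRNA measurements. The miR-425-5p strand is the usual product of its hairpin and is known to repress the messenger RNA of atrial natriuretic peptide, and miR-425-3p is its partner from the other arm.

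The mature sequences are shown because the seed, bases 2 to 8 in capitals, largely decides which messenger RNAs a miRNA can pair with. They are printed 5′ to 3′ with T for U, as the deposited table lists them.
bta-miR-191: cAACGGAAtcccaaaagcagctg
bta-miR-425-5p: aTGACACGatcactcccgttga
bta-miR-425-3p: aTCGGGAAtgtcgtgtccgccc
The 3 members thus had 3 different seeds, and none of the other 705 listed miRNAs shared a seed with any of them. None of those miRNAs had a sequence that lay inside a member, held a member or came within 2 edits of one. Whether reads were shared with a more distant sequence was not tested. The lengths were 23 nt for bta-miR-191 and 22 nt for each arm of miR-425, of which 12, 11 and 14 bases were G or C in bta-miR-191, bta-miR-425-5p and bta-miR-425-3p. A predicted duplex of the miR-425 arms, as RNAduplex folds it, held 14 base pairs at a free energy of -21.1 kcal/mol.

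In the RefSeq annotation of assembly ARS-UCD2.0, MIR191 and MIR425 are adjacent miRNA genes between NDUFAF3 and DALRD3, and both lie outside the annotated span of DALRD3. The hairpin gene of a further miRNA, bta-miR-191b, is placed inside MIR191 by position, without regard to strand. Coordinates are not given because the reads were matched to ARS-UCD1.2, an earlier assembly.

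Counts on known miRNAs ran from 1226928 to 2088249 per library, and levels are given as the percentage of these counts. The libraries were not alike in their shares of blood cell markers. The red blood cell markers miR-451, miR-144 and miR-486 together held 5.96% of the known counts in tested cow 1, against 0.862% to 2.84% in the other cows. The summed lists for white blood cells, liver, platelets and vessels, and muscle were also highest in tested cow 1, at 0.0439%, 0.0598%, 0.0253% and 0.00481%. Of the 4 white blood cell markers, however, only miR-150 was highest there, while miR-142 was highest in control cow 1, miR-155 in control cow 3 and miR-223 in tested cow 3.

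The strand bta-miR-191 was by far the most counted member and among the leading miRNAs of every cow. Control cows gave 70329, 89209 and 65741 counts of it, and tested cows gave 38927, 64167 and 86036. As a share of the known counts, the control cows had 4.57%, 4.44% and 3.30% and the tested cows 3.17%, 3.41% and 4.12%. Control cows 1 and 2 were the highest and tested cow 1 the lowest, and the groups overlapped, since tested cow 3 and tested cow 2 lay above control cow 3. It ranked 7, 7 and 9 among the known miRNAs of the control cows and 10, 9 and 8 among those of the tested cows. The 95% exact (Clopper-Pearson) interval of its share in tested cow 1 was 3.14% to 3.20%. Such intervals take in the error of counting alone and are too narrow where PCR copies of a molecule were counted separately.

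The miR-425-5p strand was counted about as often as the miRNAs near rank 100. Control cows gave 257, 515 and 293 counts and tested cows 319, 170 and 167. The shares of the control cows were 0.0167%, 0.0256% and 0.0147%, and those of the tested cows 0.0260%, 0.00905% and 0.00800%. Tested cow 1 was the highest of all cows, while tested cows 2 and 3 were the lowest, below each control cow. Its rank ran from 78 in control cow 2 to 117 in tested cow 3.

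The miR-425-3p strand was rare. Its counts came to 18, 2 and 56 among control cows and to 5, 14 and 43 among tested cows. Control cow 3 and tested cow 3 held most of its counts, and control cow 2, the control cow with the most bta-miR-425-5p, held the fewest. In control cow 2 the share was 9.96e-05% with a 95% exact interval of 1.21e-05% to 0.000360%, and in control cow 3 it was 0.00281% with an interval of 0.00213% to 0.00365%. Its rank ran from 136 to 233.

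**Figure D1:**
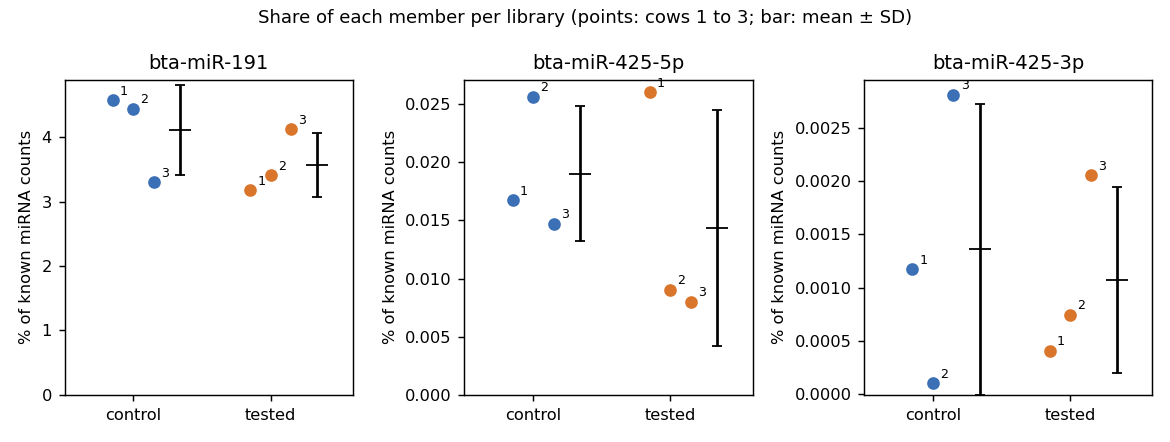
Share of each member in the known miRNA counts of a library (percent, vertical axis), with a panel per miRNA, a numbered point per cow and the mean ± SD of each group of 3 as a bar. The groups overlap in all 3 panels, and in the bta-miR-425-5p panel tested cow 1 at 0.0260% stands apart from tested cows 2 and 3 at 0.00905% and 0.00800%.

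The design asks whether the change of ration moved serum EV miRNAs. The 3 members were each lower on average in the tested group, but none of these differences passed its test. For bta-miR-425-3p the direction also turned in limma and with a replicate block, to log2 fold changes of 0.047 and 0.036. Mean shares are given with the SD over 3 cows and a two-sided exact permutation test. For bta-miR-191 the mean share was 4.11% ± 0.699 for control cows against 3.57% ± 0.492 for tested cows (exact p = 0.3). For bta-miR-425-5p the means were 0.0190% ± 0.00581 and 0.0143% ± 0.0101 (exact p = 0.6). For bta-miR-425-3p they were 0.00136% ± 0.00137 and 0.00107% ± 0.000873 (exact p = 0.7). Summed over the 3 members, control cows had 4.13% ± 0.701 and tested cows 3.58% ± 0.486 of the known counts (exact p = 0.3). After adjustment over these 4 tests the p-values lay between 0.6 and 0.7, and an exact permutation test of 3 cows against 3 cannot give a p under 0.1.

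Single cows moved these differences. For bta-miR-191 the difference of the mean shares, tested less control, was -0.537 percentage points with all cows, -0.939 without control cow 3, -0.303 without control cow 1 and -0.339 without tested cow 1. Without control cow 3 both remaining control cows lay above all of the tested cows (exact p = 0.2, the smallest that 2 cows against 3 can give). For the 3 members together it was -0.542, and the same omissions gave -0.945, -0.309 and -0.350. Without tested cow 3 the differences were -0.813 and -0.815. For bta-miR-425-5p the difference of -0.00468 became -0.0105 without tested cow 1 (again exact p = 0.2), -0.00137 without control cow 2, -0.00203 without tested cow 2 and -0.00150 without tested cow 3. That of bta-miR-425-3p, -0.000291, was 4.07e-05 without tested cow 1 and 0.000435 without control cow 3, and reached -0.000922 without control cow 2. The groups also overlapped when the counts were divided by all clean reads of a library in place of its known miRNA counts. On that scale bta-miR-191 made up 0.595% ± 0.102 of the reads of control cows and 0.386% ± 0.134 of those of tested cows (exact p = 0.2). For bta-miR-425-5p the values were 0.00283% ± 0.00112 and 0.00144% ± 0.000761 (exact p = 0.2). Those of bta-miR-425-3p were 0.000216% ± 0.000258 and 0.000110% ± 7.18e-05 (exact p = 0.8).

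The counts were also compared with the quasi-likelihood test of edgeR, fitted to all 623 miRNAs whose counts summed to at least 10, after scaling by TMM, a factor per library that sets the most extreme miRNAs aside. A log2 fold change is that of the tested group over the control group. Scaled values are in CPM, counts relative to the scaled library total, as mean ± SD over 3 cows. For bta-miR-191 they were 40348 ± 4483 CPM on the control diet and 33742 ± 3050 CPM on the tested diet. Its log2 fold change was -0.26 with a standard error of 0.14, an unadjusted p of 0.0797 and an adjusted p of 0.448 from edgeR. For bta-miR-425-5p the values were 187 ± 53.8 CPM and 137 ± 97.2 CPM. Here edgeR gave a log2 fold change of -0.45 with a standard error of 0.61 and an adjusted p of 0.880. For bta-miR-425-3p the values were 14.0 ± 14.7 CPM and 9.85 ± 7.36 CPM, and edgeR gave -0.49 with a standard error of 1.81 and an adjusted p of 0.979.

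A miRNA was called where its log2 fold change was above 1 in size at an unadjusted p below 0.05. By edgeR, 0 of the 3 members were called, while the rule called 3.21% of the 623 miRNAs and 0.962% of the 312 known ones. The fits with DESeq2 and limma also called 0 of the 3, where the rule called 4.26% of the 611 miRNAs tested with DESeq2 and 2.41% of the 623 tested with limma. At an unadjusted p below 0.05 alone the count was again 0 of 3, against 4.65% of all miRNAs tested. The median log2 fold change of the 312 known miRNAs was -0.01, and that of all 623 was 0.07. In CPM the groups overlapped for all 3 members, while they did not overlap for 10.8% of the 623 miRNAs. Without tested cow 1 the log2 fold change of bta-miR-425-5p was -1.21 (unadjusted p of 0.0858 from edgeR), and without control cow 3 that of bta-miR-191 was -0.34 (unadjusted p of 0.0346 and adjusted p of 0.595 from edgeR, where the alternatives for this miRNA gave adjusted p-values of 0.397 to 0.994). The estimate for bta-miR-425-3p turned positive without control cow 3, at 0.73. Without tested cow 1 the log2 fold changes of bta-miR-191 and bta-miR-425-3p were -0.19 and -0.12.

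**Figure D2:**
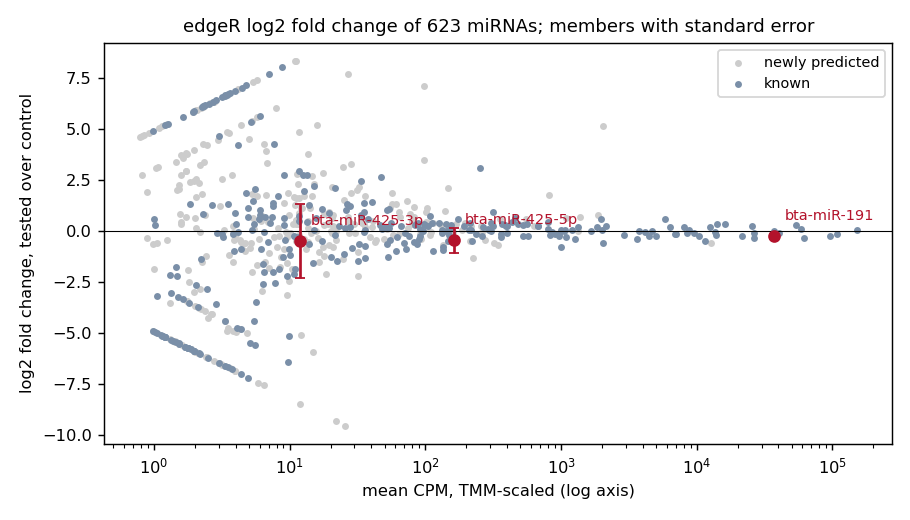
Log2 fold change of the tested group over the control group (vertical axis) against the mean TMM-scaled CPM (horizontal log axis) for the 623 miRNAs tested with edgeR. The 3 members are red with their standard errors and lie just below 0, at -0.26, -0.45 and -0.49, with an error that widens from bta-miR-191 to bta-miR-425-3p.

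Because the members of a library share its depth, their count ratio needs no scaling. Within the cluster bta-miR-191 held 99.2% to 99.8% of the counts in each cow, bta-miR-425-5p 0.194% to 0.813% and bta-miR-425-3p 0.00223% to 0.0847%. The order of the members was thus the same in all 6 cows. A count ratio between different miRNAs need not be the ratio of their molecules, which was not measured here, so the ratios are read across cows.

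The ratio of bta-miR-191 to bta-miR-425-5p came to 274, 173 and 224 among control cows and to 122, 377 and 515 among tested cows. The control cows lay between the tested cows, with tested cow 1 below and tested cows 2 and 3 above all of them. The 95% exact counting intervals were 109 to 137 in tested cow 1 and 443 to 603 in tested cow 3. Over the 6 cows the ratio ranged 4.22-fold. The SD of its log2 value was 0.75.

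On the log2 scale the mean ratio was 7.78 ± 0.33 for control cows and 8.17 ± 1.09 for tested cows, with the SD over 3 cows each. The difference of 0.39 (standard error 0.66) did not exceed the spread between cows (p = 0.6 by exact permutation, and 0.9 when adjusted over the 3 ratios). It was 1.00 without tested cow 1, where both remaining tested cows exceeded all of the control cows (p = 0.2 by exact permutation, the smallest that 2 against 3 can give). Without tested cow 3 it was -0.04, the only omission of a cow that turned its direction, and it fell to 0.21 without control cow 2 and 0.19 without tested cow 2.

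**Figure D3:**
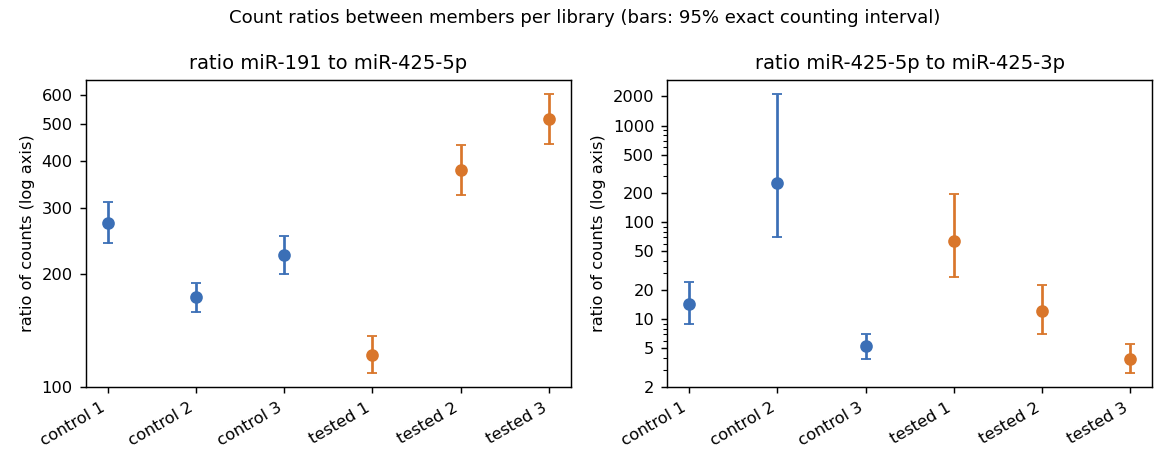
Count ratio of bta-miR-191 to bta-miR-425-5p (left panel) and of bta-miR-425-5p to bta-miR-425-3p (right panel) in each library, on log axes, with 95% exact counting intervals. Control cows in blue span 173 to 274 in the left panel and lie inside the range of the tested cows in orange, 122 to 515, and in the right panel the widest interval is that of control cow 2, which rests on 2 counts of bta-miR-425-3p.

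Blood markers were set beside this ratio. The red blood cell list of 3 markers, each counted in every library, held 2.84%, 1.63% and 1.35% of the known counts of control cows and 5.96%, 1.08% and 0.862% of those of tested cows. The cow with the highest marker share, tested cow 1, had the lowest ratio, and tested cows 2 and 3, with the lowest marker shares, had the highest ratios. Among the control cows the order was not kept, since control cow 1 had both the highest marker share and the highest ratio, 274. The liver marker miR-122 and the white blood cell marker miR-150 were likewise highest in tested cow 1, at 0.0598% and 0.0326%, then in control cow 1, at 0.0462% and 0.0206%, and lowest in tested cow 3, at 0.0150% and 0.00522%. The other white blood cell markers did not keep this order. Of these, miR-142 was highest in control cow 1 (0.00956%), miR-155 in control cow 3 (0.0118%) and miR-223 in tested cow 3 (0.00455%). The part of any of these cell types in the ratio was not tested. Of the single red blood cell markers, bta-miR-451 had a share of 1.73% in tested cow 1, against 0.292% and 0.169% in tested cows 2 and 3.

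**Figure D4:**
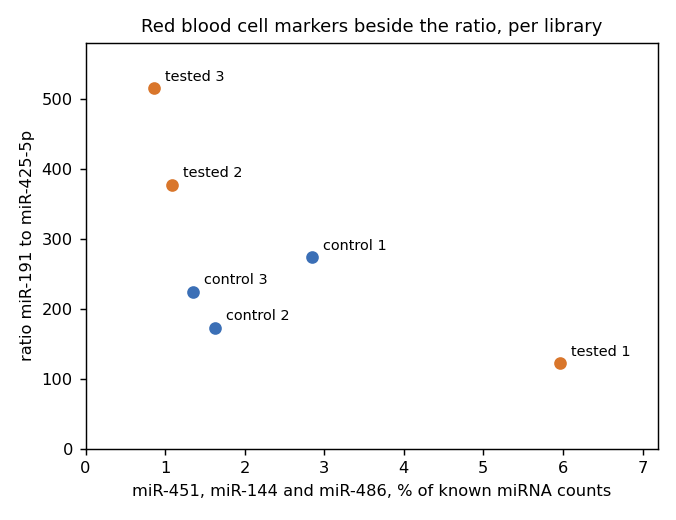
Count ratio of bta-miR-191 to bta-miR-425-5p (vertical axis) against the summed share of the red blood cell markers miR-451, miR-144 and miR-486 in the known counts (percent, horizontal axis), a point per library. Tested cow 1 sits alone at 5.96% with a ratio of 122, and tested cow 3 is at the other end, at 0.862% with a ratio of 515.

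The arms of miR-425 were counted unequally in every cow. The ratio of bta-miR-425-5p to bta-miR-425-3p came to 14.3, 257.5 and 5.23 among control cows and to 63.8, 12.1 and 3.88 among tested cows. The 5p arm thus led in 6 of 6 cows. The interval in control cow 2, 70.9 to 2132, rests on 2 counts of the 3p arm, and that in tested cow 3 was 2.76 to 5.56. On the log2 scale the group means were 4.74 ± 2.92 and 3.85 ± 2.03, with the SD over 3 cows, a difference of -0.89 (standard error 2.05; exact permutation test, p = 0.6, and 0.9 when adjusted over the 3 ratios). The difference was 0.74 without control cow 2, 0.055 without tested cow 3, -2.07 without control cow 3, -1.96 without tested cow 1 and -1.35 without control cow 1.

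Over all 6 libraries the 5p arm had 1721 counts and the 3p arm 138, a ratio of 12.5. Among the 20 known miRNAs with both arms listed and at least 10 counts on each, this imbalance was the 10th largest, beside a median of 12.5. By the mean log2 ratio per library, 4.20 for miR-425 with 0.5 counts added to each arm, it was the 13th largest. Control cow 3 and tested cow 3, with 56 and 43 counts, held most of the pooled counts of the 3p arm. The 5p arm led in 11 of those 20. With the same counts added, the SD of the log2 arm ratio over the cows was 2.19 for miR-425, where the median of the 20 was 2.64.

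The ratio of bta-miR-191 to bta-miR-425-3p ran from 1174 in control cow 3 to 44604.5 in control cow 2, and from 2001 to 7785 in the tested cows. Its log2 mean was 12.5 ± 2.67 for control cows and 12.0 ± 0.99 for tested cows, again with the SD over 3 (exact permutation test, p = 0.9). The difference of -0.51 (standard error 1.65) turned to 0.95 without control cow 2 and to 0.020 without tested cow 3, and was -1.67 without control cow 3, -0.96 without tested cow 1 and -0.80 without control cow 1.

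No relation between the members over the 6 cows passed a test, which does not show that they were unrelated. Between the log2 shares of bta-miR-191 and bta-miR-425-5p Pearson's r was 0.03 (permutation p = 0.947) and Spearman's rho -0.14 (permutation p = 0.803). Without control cows 1 and 2, the cows farthest from the median of bta-miR-191, r was -0.78 over the 4 others. Between bta-miR-191 and bta-miR-425-3p r was -0.23 (permutation p = 0.686) and rho -0.09 (permutation p = 0.919), and without the same cows r was 0.50. Between the arms of miR-425 r was -0.67 (permutation p = 0.153) and rho -0.66 (permutation p = 0.175), and without tested cows 2 and 3 r was -0.90. Adjusted over the 3 pairs, the p-values of r were 0.458 to 0.947 and those of rho 0.525 to 0.919.

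The spread of the members was set beside that of all known miRNAs with at least 100 counts in every library, 99 with bta-miR-191 and bta-miR-425-5p included. The log2 share of bta-miR-191 had an SD of 0.23 over the 6 cows, the 38th smallest of the 99, and ranged 1.44-fold. That of bta-miR-425-5p had an SD of 0.72, the 89th smallest, and ranged 3.25-fold. The median SD was 0.29, so that bta-miR-191 varied less and bta-miR-425-5p more than the middle of these miRNAs. Without tested cow 1, an omission added after the data were seen, the SDs were 0.22 and 0.68, the 33rd and 92nd smallest of the 99.

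A list of 35 pairs of miRNAs known in mammals as neighbours on a transcript gave a measure for such ratios. Counts are per mature strand, so a strand made from several hairpin genes is not split by transcript. In 31 pairs both members were listed, and in 16 both had at least 100 counts in every library. In the other 15 of the 16 pairs the geometric mean of the ratio was at most 66.0, with a median of 5.11. The pair of bta-miR-191 and bta-miR-425-5p, at a geometric mean of 251, was the most unequal of the 16 in counts. This order of the pairs need not hold for molecules. Its log2 ratio also had the second largest SD over the cows, 0.75 against a median of 0.27 for the other 15. Without tested cow 1 the SD was 0.62, again the second largest, against a median of 0.30.

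The steadiest of these pairs was bta-let-7f and bta-miR-98, related miRNAs of the let-7 family, whose ratio stayed between 60.6 and 70.6 with an SD of 0.09. Next were the epithelial miRNAs bta-miR-200a and bta-miR-200b with an SD of 0.14 and bta-miR-30d and bta-miR-30b-5p of the miR-30 family with 0.16. The pair that varied most was bta-miR-27b and bta-miR-23b-3p, with ratios from 11.9 to 127 and an SD of 1.14, followed by the members described here and by bta-miR-125a and bta-let-7e with 0.52. These are descriptions over the same 6 libraries, and pairs with fewer counts carry more counting error.

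**Figure D5:**
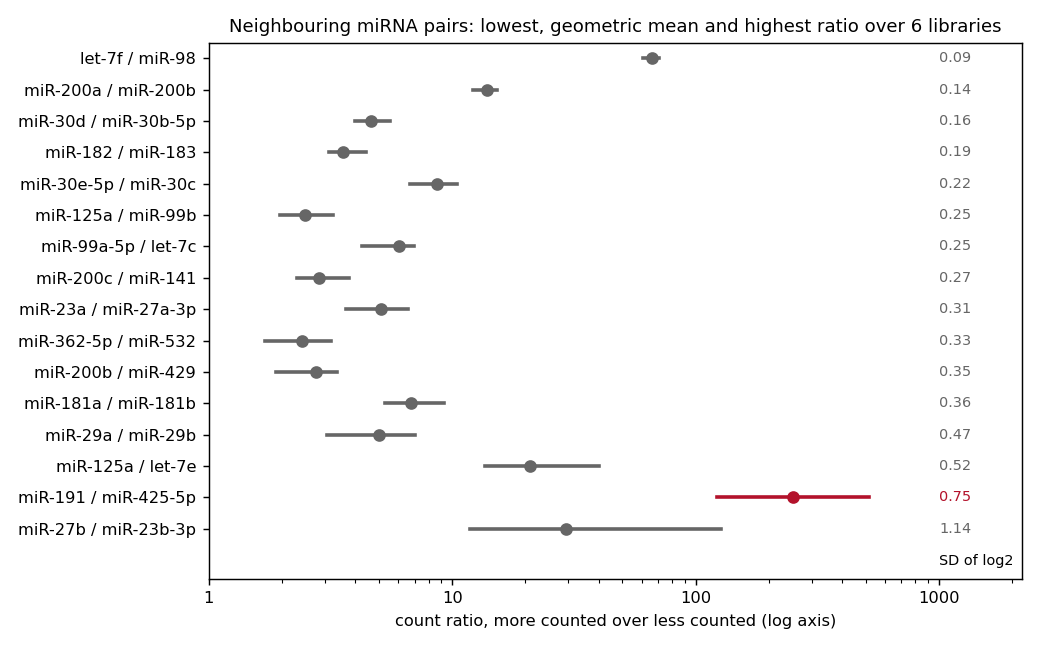
Lowest, geometric mean (point) and highest count ratio over the 6 libraries for the 16 neighbouring pairs with at least 100 counts per member and library, on a log axis, sorted by the SD of the log2 ratio printed at the right. The pair of miR-191 and miR-425-5p (red) lies farthest to the right, at 122 to 515, and its SD of 0.75 is exceeded by 1 pair, miR-27b and miR-23b-3p.

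The miRNAs whose pattern over the 6 libraries was most like a member were found by the smallest SD of the log2 count ratio to it. For bta-miR-191 these were bta-miR-99b (0.15), bta-miR-125a (0.16), bta-miR-151-5p (0.17), bta-miR-21-5p (0.17) and bta-miR-342 (0.18). The count of bta-miR-151-5p, for example, was between 0.613 and 0.858 times that of bta-miR-191 in every cow. Among the 98 other miRNAs bta-miR-425-5p came 87th by this measure, with 0.75 against a median of 0.35. Without tested cow 1 it came 86th, only 2 of the 5 nearest miRNAs were the same, and the nearest was then bta-miR-192, with an SD of 0.07.

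For bta-miR-425-5p the nearest was bta-miR-484, with an SD of 0.34 and counts 4.92 to 9.94 times those of bta-miR-425-5p. It was followed by bta-miR-92a (0.54), bta-miR-151-3p (0.55), bta-miR-2285t (0.55) and bta-miR-375 (0.56). Seen from bta-miR-425-5p, bta-miR-191 came 44th of 98, near the median of 0.77. Without tested cow 1 it came 20th, with an SD of 0.62 against a median of 0.72, and 3 of the 5 nearest were the same, bta-miR-484 still first. All these values share the 6 libraries and their depth, and they describe likeness only.

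The sequence of bta-miR-191b was looked at after its values were seen, because its gene is annotated inside MIR191.
bta-miR-191b: gAACGAAAtccaagcgcagctg
It lies 5 edits from bta-miR-191. Counted from 1 at the 5′ end of bta-miR-191, the first 8 bases differ by C1G and G6A, and the second of these falls in the seed. These differences compare the sequences as listed only. The strands of the genes were not compared, so bta-miR-191b is not shown to be a variant of bta-miR-191 or to share its transcript. The counts of bta-miR-191b were 87, 23 and 80 among control cows and 99, 9 and 67 among tested cows, so that bta-miR-191 was counted 393 to 7130 times as often. The lowest of these ratios, 393, was in tested cow 1. The highest, 7130, was in tested cow 2 and rests on 9 counts of bta-miR-191b. In edgeR its log2 fold change was 0.04 with a standard error of 1.19 and an adjusted p of 0.994.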

How the data were processed

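Small RNAs of serum EVs were sequenced from 3 control and 3 tested cows. The authors kept reads of a set length range, filtered them with FASTX and NGS QC tools, matched them to the bovine genome, removed other RNA classes and took known miRNAs from miRBase and further ones from miRDeep2. The submitters' processing notes also name cutadapt 1.14, Bowtie and ARS-UCD1.2. The authors deposited counts per miRNA without normalization, and the counting tool is not given in the sources used here. A second table, named TPM, holds RPM values that the authors deposited, each count divided by the clean reads of its library, of which there were 11048676 to 24187264. Columns with the authors' own fold changes and p-values, and their table of called miRNAs, were not used.

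Counts of 623 miRNAs (sum of at least 10) were tested with edgeR 4.0.16 in R 4.3.3 (TMM, estimateDisp, glmQLFit, glmQLFTest), with Benjamini-Hochberg adjustment. Alternatives were DESeq2 1.42.0, limma 3.58.1 on log2(CPM + 1), other scalings, filters, a replicate block and each cow left out. Each tool was tested on simulated data. Shares, log2 ratios and correlations used exact permutation tests (Python 3.11.15, SciPy 1.17.1), and duplexes ViennaRNA 2.7.2. The miRNAs named are the members, those related in sequence, the 5 nearest in pattern to bta-miR-191 and bta-miR-425-5p, the extreme neighbouring pairs and marker lists. Members and lists were chosen with earlier results of these data known. The p-value of a group comparison sets the difference against the spread between these cows. Those of the correlations come from permuting the pairings over the cows.

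The marker lists for platelets and vessels, epithelium and muscle held 0.00146% to 0.0253%, 7.74% to 9.64% and 0.000130% to 0.00481% of known counts. In them miR-203 was not listed, and miR-214 and miR-133a had no count in some libraries.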

Additional observations from a re-analysis of the deposited data

How the results depend on the processing

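Of 133 recomputed values, 119 kept their direction and side of the threshold (for counts of calls and SDs, stayed within 1.5 times), and no member passed the threshold under any alternative tried. For bta-miR-191 and bta-miR-425-5p the difference kept its direction in all alternatives, with log2 fold changes from -0.34 to -0.19 and from -1.21 to -0.13 when a cow was left out. For bta-miR-425-3p, with 138 counts in all, the log2 fold change was 0.047 with limma and 0.036 with the replicate block, and ran from -1.24 to 0.73 with a cow left out, and its share difference from -0.000922 to 0.000435 percentage points. The replicate numbers were not taken to pair the cows, since same-numbered libraries deviated together with correlations of 0.12, 0.04 and 0.06 only. In the main fit 20 of 623 miRNAs passed the threshold, and with the replicate block 12 of 623. With filterByExpr 13 of 348 passed. With known miRNAs alone 6 of 312 passed, where the main fit called 3 of those 312. The cause of these differences was not tested. The log2 ratio difference with a cow left out ran from -0.035 to 1.00 for bta-miR-191 to bta-miR-425-5p, from -1.67 to 0.95 for bta-miR-191 to bta-miR-425-3p and from -2.07 to 0.74 for the arms of miR-425. With counts pooled over the group, the second of these was 0.041, and the cause of this turn was not tested. No nested sequence was listed, so there were no counts of such sequences to add. Depth limits the 3p arm most, at 2 to 56 counts per library.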
